A study of Mus musculus with 8 samples.

Results

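The genes described here are the metalloproteinases of the matrixin, ADAM and ADAMTS families and their tissue inhibitors in mouse soleus, a slow muscle of the calf. Members were all protein-coding genes whose symbol starts with Mmp, Adam, Adamts or Timp followed by a number, which gave 78 of the 22880 gene IDs in the count files: 33 Adam, 22 Mmp, 19 Adamts and 4 Timp genes. RNA of the soleus was sequenced from 4 control mice (Dnm2 +/+) and 4 heterozygous mice (Dnm2 +/K562E), all males at 2 months of age and on the C57BL/6 background. The Dnm2 +/K562E mice carry, in every cell of the body, a knock-in point mutation in 1 of the 2 alleles of Dnm2, which encodes the membrane-fission GTPase dynamin 2, and a LoxP site is left in the neighbouring intron of that allele. The control mice carry neither, and the methods describe controls in general as littermates or mice of the same age. Each library is 1 mouse, and the libraries held 33407430 to 48832814 counts.

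Matrix metalloproteinases (MMPs) are zinc enzymes that cut collagens and other matrix proteins, most of them after a pro-domain has been removed. ADAMs are membrane proteins, many of which shed the outer parts of other membrane proteins, and ADAMTS enzymes are secreted and cut procollagens and proteoglycans. The TIMPs block these enzymes in a tight complex, and in muscle the balance of proteases and inhibitors is known for its part in the remodelling of the connective tissue around the fibres.

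Of the 78 members, 47 had enough reads to be tested. A gene was called when the quasi-likelihood F-test of edgeR gave an adjusted p under 0.05 and its log2 fold change was at least 0.58 in either direction. By this rule 20 of the 47 tested members were higher in Dnm2 +/K562E mice, 4 were lower and 23 were not called. Over all 14001 genes tested, 12.9% were called higher and 7.85% lower. The median log2 fold change was 0.44 over the tested members and 0.0074 over all genes. Mmp12, Mmp24 and Adamts19 passed the filter on low counts only through their reads in the mutant mice. Their place among the higher genes was thus partly set by that filter. By family, 8 of 13 tested Mmp genes were higher and 2 lower, 6 of 17 Adamts genes were higher and 1 lower, 4 of 13 Adam genes were higher and none lower, and 2 of 4 Timp genes were higher and 1 lower. With the adjusted p alone, 21 members were higher and 7 lower, and 22.2% and 21.7% of all genes were. In 23 of the 47 members no value of a control mouse overlapped with those of the mutant mice, and the share over all genes was 41.2%.

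**Figure D1:**
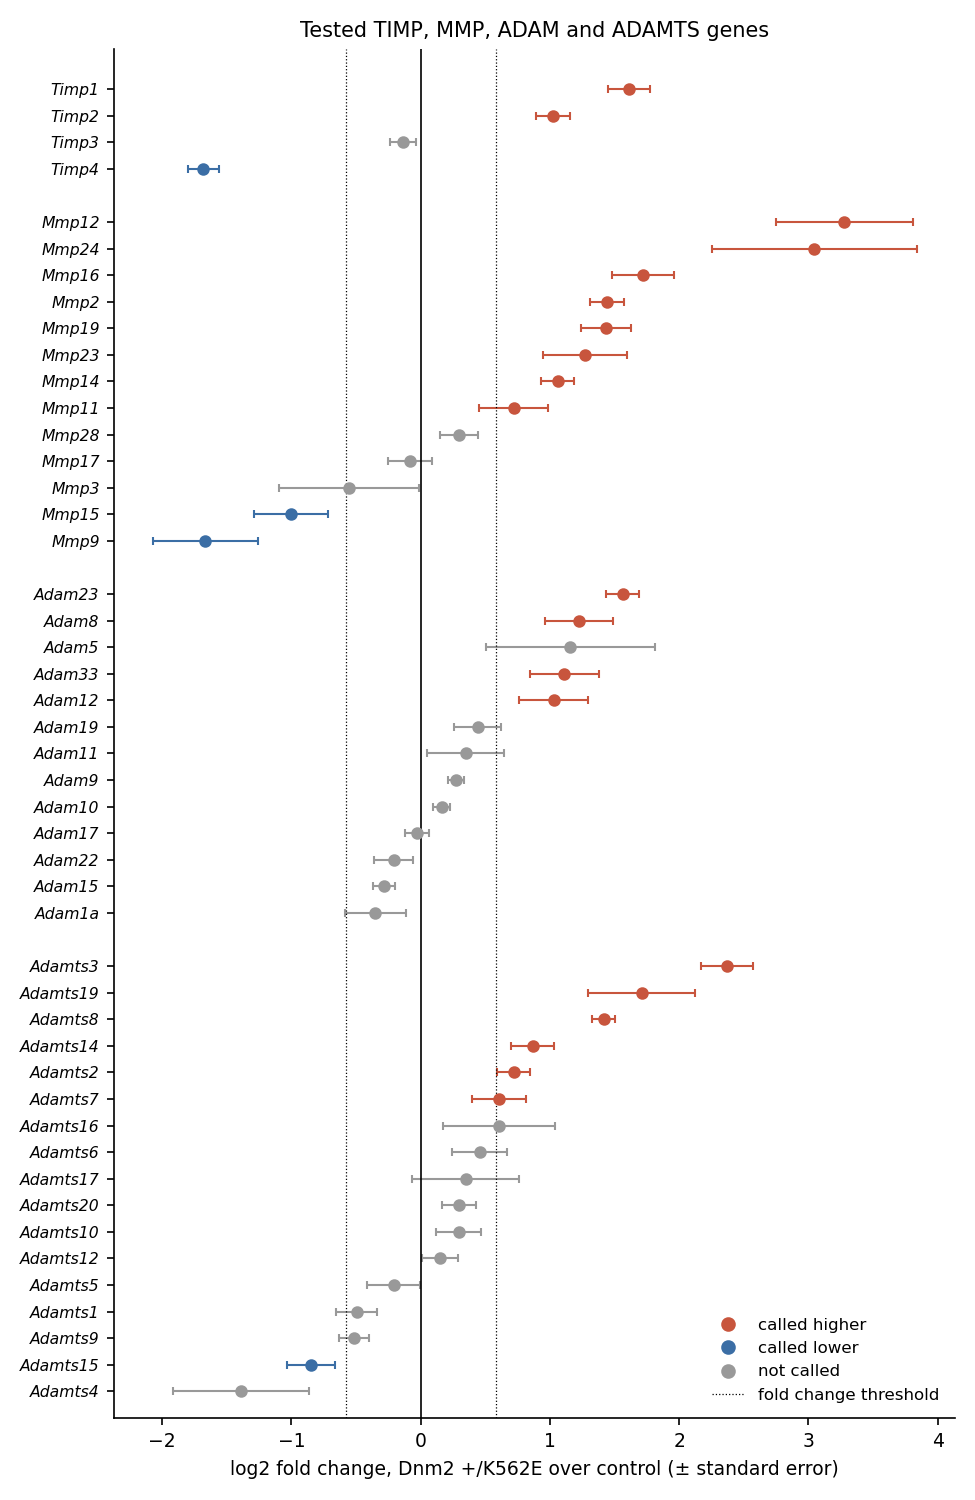
Log2 fold change (Dnm2 +/K562E over control, horizontal axis) of the 47 tested members, grouped by family, with bars for the standard error and dotted lines at 0.58 on either side of 0. Mmp12, at 3.28, lies farthest to the right, and Timp4, at -1.68, and Mmp9, at -1.67, lie farthest to the left.

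Dnm2 itself, the mutated gene, gave 66.3 ± 4.74 CPM (counts scaled to library size and composition; SD, n = 4) in controls and 73.4 ± 2.43 in Dnm2 +/K562E mice. Its log2 fold change was 0.15 ± 0.07 (SE; edgeR adjusted p = 0.0909). A point mutation need not alter this total, so it does not check the genotype labels. Fewer cells of a type and less RNA per cell cannot be told apart in whole muscle, and this holds for every level below.

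The markers of other cell types differed between the genotypes as well. All 7 macrophage markers were called higher, with summed levels of 72.8 to 135.5 CPM in controls and 179.3 to 295.6 CPM in mutants. All 7 fibroblast markers were called higher (1831 to 2920 CPM against 4082 to 5315 CPM), as were 5 of 6 tendon markers (327.4 to 736.6 CPM against 933.5 to 1292 CPM). Of 5 endothelial markers 1 was called lower (921.1 to 967.8 CPM against 650.7 to 750.7 CPM), and 3 of 4 satellite cell markers were called lower (19.5 to 25.1 CPM against 7.51 to 11.1 CPM). Of the 8 muscle fibre markers 3, Ckm, Tnnc1 and Myl2, were called lower (46728 to 56364 CPM against 31379 to 36320 CPM). This list joins slow fibre genes with Acta1 and Ckm, which are not particular to slow fibres. Acta1 and Ckm made up most of the sum, at 24358 and 9375 CPM in the control mean. None of 5 Schwann cell markers (242.2 to 279.1 CPM against 235.9 to 285.0 CPM) and none of 5 mast cell markers (11.3 to 41.3 CPM against 6.97 to 28.3 CPM) was called. No neutrophil marker of 8 had enough reads to be tested: their sum was 0.294 to 0.745 CPM in controls and 0.668 to 2.47 CPM in mutants. Ly6g was at 0 in every mouse. S100a8 had 1 to 4 reads in controls and 9 to 29 in mutants, and Ltf had 1 to 5 and 7 to 35. The other markers of this list overlapped between the genotypes. Only 1 of 5 T cell markers, Cd4, was tested, and the sum of the 5 was 0.336 to 1.18 CPM in controls and 0.767 to 2.15 CPM in mutants. The part of these cell types in the changes described below was not tested.

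The 4 inhibitors did not move together: Timp1 and Timp2 were higher, Timp4 was lower and Timp3 was not called. All 4 were read in every mouse. Timp1, the secreted inhibitor that also binds the pro-form of MMP9, stood at 9.44, 7.07, 9.14 and 12.1 CPM in controls 1 to 4 and at 36.3, 25.3, 28.4 and 25.6 CPM in Dnm2 +/K562E mice 1 to 4. Every mutant mouse was above the highest control, and the level was 3.06-fold higher (log2 fold change 1.61 ± 0.16 SE, adjusted p = 2.37e-05, edgeR). Timp2, which together with MMP14 brings pro-MMP2 to the cell surface, stood at 171.8, 155.9, 162.4 and 241.5 CPM in controls and at 382.7, 413.3, 358.8 and 331.2 CPM in mutants. The genotypes did not overlap here either, and the log2 fold change was 1.02 ± 0.13 (SE; edgeR adjusted p = 0.000125).

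Timp4, an inhibitor known for its high level in heart and muscle, ran the other way. It stood at 81.7, 118.7, 119.6 and 114.3 CPM in controls and at 34.1, 33.2, 30.5 and 37.4 CPM in mutants. The mutant mice lay within a narrow range, far below the lowest control, and the level was 3.21-fold lower (log2 fold change -1.68 ± 0.12 SE, edgeR adjusted p = 2.5e-06). Timp3, the inhibitor that binds to the matrix and acts on ADAM17 and aggrecanases, stood at 376.9, 289.9, 319.4 and 264.2 CPM in controls and at 271.1, 282.4, 275.8 and 308.8 CPM in mutants. These ranges overlapped, and the log2 fold change of -0.14 ± 0.10 (SE) was not called (edgeR adjusted p = 0.297).

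**Figure D2:**
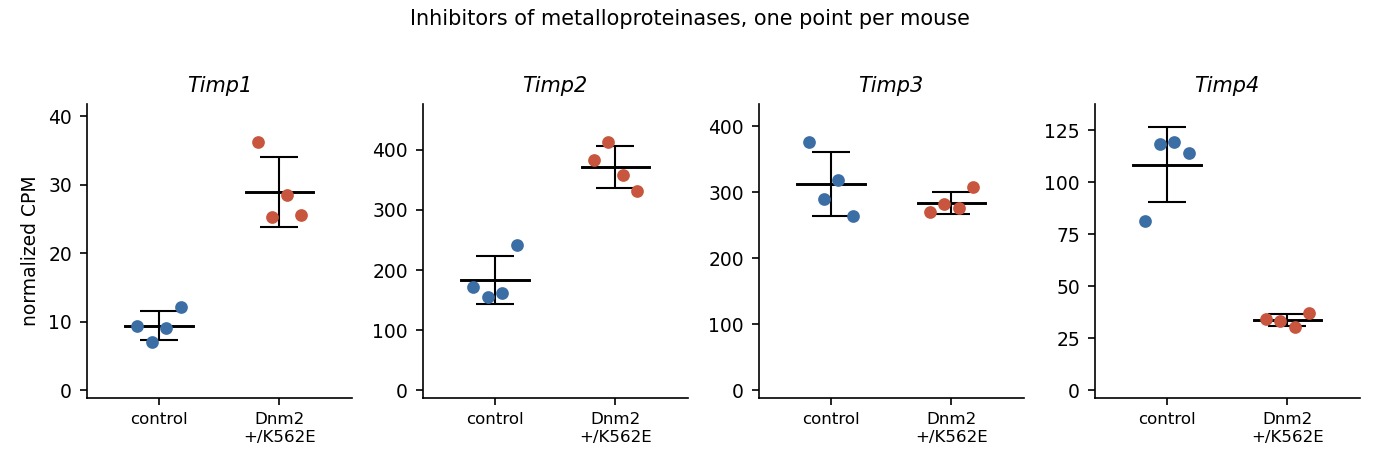
Normalised CPM (vertical axis) of Timp1, Timp2, Timp3 and Timp4 in each of the 4 control and 4 Dnm2 +/K562E mice (points), with the mean (bar) and SD. The mutant mice sit above all controls for Timp1 and Timp2, below all controls for Timp4 (30.5 to 37.4 against 81.7 to 119.6) and among them for Timp3.

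In GRCm38 coordinates, Timp1 (ENSMUSG00000001131) is on chromosome X at 20870166 to 20874735 and Timp2 (ENSMUSG00000017466) on chromosome 11 at 118301069 to 118355740. Timp3 (ENSMUSG00000020044) is on chromosome 10 at 86300372 to 86349506 and Timp4 (ENSMUSG00000030317) on chromosome 6 at 115241892 to 115252205. Timp1, Timp3 and Timp4 each lie within a synapsin gene on the opposite strand (Syn1, Syn3 and Syn2). Exons overlap over 1733 bases for Timp3 and Syn3, or 21.3% of the exon bases of Timp3. Spread evenly over its exons, the reads of Timp3 would bring 2414 counts a mouse to these bases, yet Syn3 had a mean of 7.5 counts. Over all genes, 65 of 288 such overlaps with a gene on the opposite strand had a partner with under 10% of the counts that the shared bases would bring it, although reads on more than 1 gene were added to all of them. Such low counts go with counting by strand, which was not tested. The overlaps are those of GENCODE M21, and the reads were counted on an earlier annotation.

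The 250 bases before the start site are given here for 4 members that differ in direction: Timp1 and Mmp14 as higher genes, Timp4 as a lower gene and Mmp3 as a gene that was not called. The sequences are from RefSeq on GRCm38.p6, on the strand of the gene, 5′ to 3′, and stand for Timp1 chrX:20869916-20870165 (+ strand), Mmp14 chr14:54431348-54431597 (+ strand), Timp4 chr6:115252206-115252455 (- strand) and Mmp3 chr9:7445572-7445821 (+ strand). Capitals mark matches to any of 4 motifs searched on both strands: the AP-1 site TGANTCA, the TATA box TATAAA, the GC box GGGCGG and CAGCTG, an E-box of the kind bound by MyoD.
Timp1: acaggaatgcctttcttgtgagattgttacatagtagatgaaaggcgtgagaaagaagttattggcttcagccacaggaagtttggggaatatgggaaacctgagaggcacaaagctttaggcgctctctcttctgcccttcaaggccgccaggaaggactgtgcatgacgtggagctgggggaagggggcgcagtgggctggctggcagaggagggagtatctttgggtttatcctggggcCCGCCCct
Mmp14: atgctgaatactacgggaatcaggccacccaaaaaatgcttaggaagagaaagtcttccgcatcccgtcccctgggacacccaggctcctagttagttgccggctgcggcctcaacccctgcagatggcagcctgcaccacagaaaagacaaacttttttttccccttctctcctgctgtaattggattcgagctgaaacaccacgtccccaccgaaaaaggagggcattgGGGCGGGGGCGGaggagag
Timp4: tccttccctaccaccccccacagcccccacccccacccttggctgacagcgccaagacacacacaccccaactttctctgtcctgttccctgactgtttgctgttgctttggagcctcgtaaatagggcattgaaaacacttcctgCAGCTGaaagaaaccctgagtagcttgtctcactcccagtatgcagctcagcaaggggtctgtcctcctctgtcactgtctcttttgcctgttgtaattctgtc
Mmp3: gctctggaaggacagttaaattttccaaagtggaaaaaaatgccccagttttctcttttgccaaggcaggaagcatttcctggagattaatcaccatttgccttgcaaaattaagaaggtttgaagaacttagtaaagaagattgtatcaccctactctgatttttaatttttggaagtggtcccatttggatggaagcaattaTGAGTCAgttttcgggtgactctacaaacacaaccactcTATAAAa
Timp1 held a GC box whose first base is 8 bases before the start, read on the other strand, and Mmp14 held a pair of them, at 19 and 13 bases before it. Timp4 held the E-box at 104 bases before the start. Mmp3 held the AP-1 site, at 46 bases, and a TATA box, at 7 bases before the listed start. RefSeq entries were at hand for 48 of the 78 members. The AP-1 letters were found in 9 of these 48 and in 6.87% of all 27025 promoters. Of these 9 (Adam20, Adam25, Adam29, Mmp1b, Mmp3, Mmp7, Mmp10, Mmp13 and Mmp20) all but Mmp3 had too few reads to be tested. The TATA letters were found in 11 of 48 members and in 13.0% of all promoters, and of these 11 only Adamts1 and Mmp3 were tested. The GC box was found in 20 of 48 members and in 32.9% of all promoters. Of the 12 higher members with an entry 9 held it (Timp1, Timp2, Mmp11, Mmp14, Mmp24, Adam8, Adamts2, Adamts3 and Adamts14), as did Mmp15, 1 of 2 lower members with an entry. CAGCTG was found in 8 of 48 members and in 12.8% of all promoters, and in Timp2, Adamts2 and Timp4 among those called. A match describes these letters only.

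Mmp2 carried most of the signal among the MMPs. It encodes the gelatinase that cuts denatured collagen and type IV collagen, and it lies on chromosome 8 at 92827291 to 92853420. Its level was 121.5, 108.1, 107.3 and 164.0 CPM in controls and 380.5, 328.5, 317.8 and 334.0 CPM in mutants. All mutant mice were above all controls, by 2.72-fold in the mean (log2 fold change 1.44 ± 0.13 SE, edgeR adjusted p = 1.05e-05). Mmp9, the other gelatinase and a typical product of neutrophils and macrophages, was very low, at 0.983, 1.51, 1.28 and 3.24 CPM in controls and 0.706, 0.395, 0.692 and 0.405 CPM in mutants. It was called lower (log2 fold change -1.67 ± 0.41 SE, edgeR adjusted p = 0.00709). Control 4 was the highest library, and leaving it out gave a log2 fold change of -1.20 (edgeR adjusted p = 0.0159). Control 4 also had the highest sum of mast cell markers (41.3 CPM) and the highest macrophage sum among controls (135.5 CPM), and the part of these cells in the Mmp9 level was not tested.

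Of the 6 membrane-type MMPs 5 were tested, and 3 were higher, 1 lower and 1 not called. Mmp14, which encodes MT1-MMP, a collagenase at the cell surface and the activator of pro-MMP2, stood at 27.2, 29.5, 29.9 and 42.0 CPM in controls and at 77.1, 62.5, 65.5 and 63.0 CPM in mutants. The ranges were far apart and the log2 fold change was 1.06 ± 0.13 (SE; edgeR adjusted p = 8.84e-05). Mmp16, which encodes MT3-MMP, a further activator of pro-MMP2, stood at 0.765 to 1.61 CPM in controls and 3.53 to 4.83 CPM in mutants (log2 fold change 1.72 ± 0.24 SE, edgeR adjusted p = 0.000195). Mmp24, which encodes MT5-MMP, known from the nervous system, had 0, 0, 7 and 0 reads in controls 1 to 4 and 12, 23, 14 and 16 reads in mutants 1 to 4. It was called higher (edgeR adjusted p = 0.00945), but its fitted log2 fold change of 3.05 ± 0.79 (SE) rests on these few reads, is no bound, and was 6.93 without control 3, the only control with a read.

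Mmp15, which encodes MT2-MMP, was the lower gene of this group. It stood at 22.9, 55.9, 55.6 and 62.0 CPM in controls and at 29.8, 18.7, 18.6 and 31.2 CPM in mutants. Control 1 lay within the range of the mutants, while the other 3 controls were above all of them. The log2 fold change was -1.003 ± 0.28 (SE; edgeR adjusted p = 0.0145) and without control 1 it was -1.25. Over the other left-out mice it ranged from -0.88 to -1.14, with an adjusted p of up to 0.0444 (edgeR). Mmp17, a membrane-type member held by a lipid anchor, was at 3.53 ± 0.529 CPM in controls and 3.34 ± 0.487 CPM in mutants (SD, n = 4 each). Its log2 fold change of -0.082 was not called (edgeR adjusted p = 0.722). Mmp25 had 80 reads over all mice and was not tested.

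**Figure D3:**
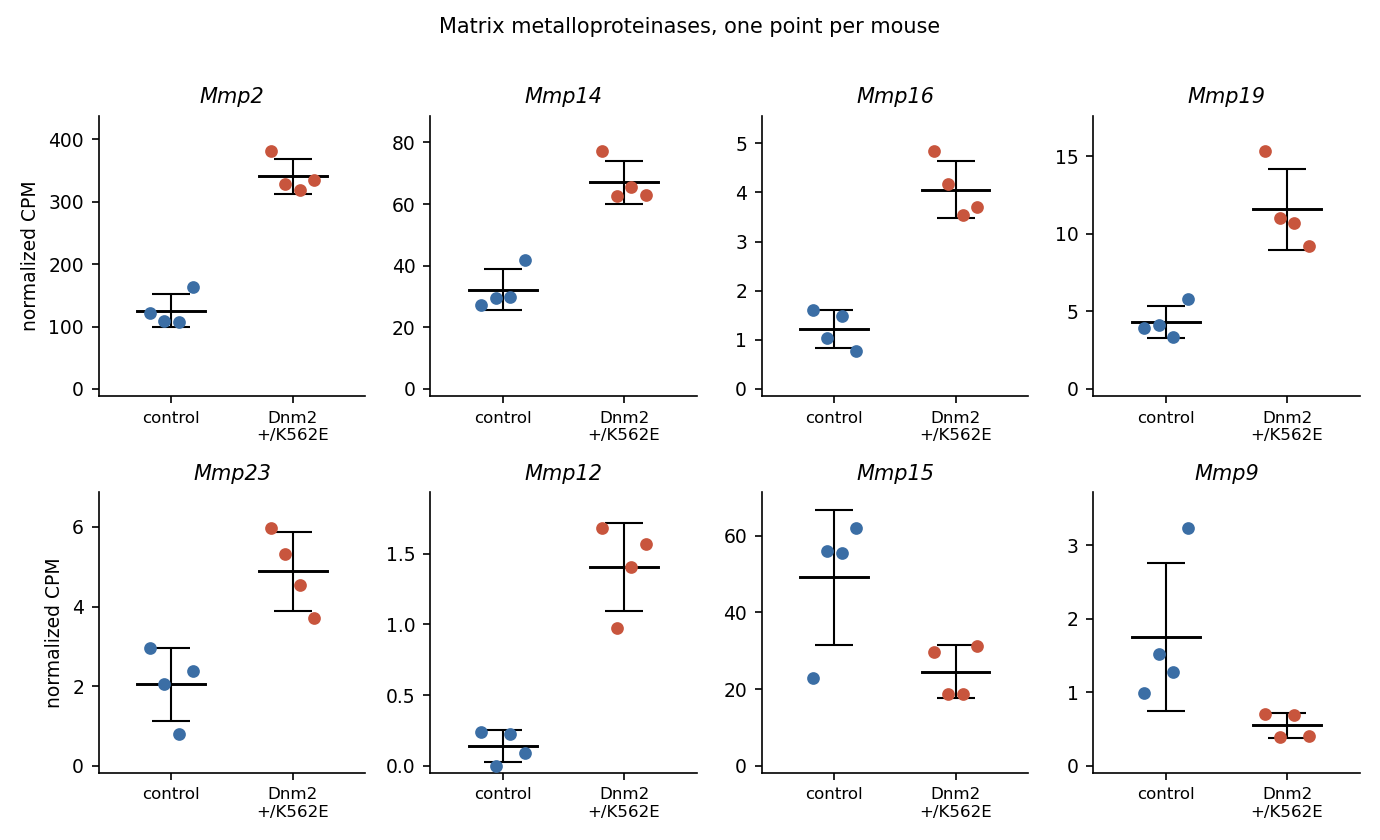
Normalised CPM (vertical axis, 1 scale per panel) of 8 Mmp genes in each control and Dnm2 +/K562E mouse (points), with the mean (bar) and SD. Mmp2, Mmp14, Mmp16, Mmp19, Mmp23 and Mmp12 sit higher in every mutant mouse, Mmp9 sits lower, and control 1 lies among the mutants for Mmp15.

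Mmp12, the macrophage metalloelastase, was very low in controls, with 8, 0, 10 and 3 reads in controls 1 to 4, and had 62, 42, 59 and 58 reads in mutants 1 to 4. Its level was 0.138 ± 0.114 CPM in controls and 1.41 ± 0.310 CPM in mutants (SD, n = 4), and the log2 fold change was 3.28 ± 0.53 (SE; edgeR adjusted p = 0.000549). It moved in the same direction as the macrophage markers given above. By fold, these ran from Mrc1 (24.0 to 53.1 CPM in the mean), the smallest change, up to Cd68 (5.65 to 19.2 CPM) and Lgals3 (7.52 to 32.0 CPM). The part of these cells in the Mmp12 level was not tested. Mmp19, a broad matrix protease, stood at 3.93, 4.10, 3.38 and 5.77 CPM in controls and at 15.3, 11.04, 10.7 and 9.24 CPM in mutants (log2 fold change 1.43 ± 0.19 SE, edgeR adjusted p = 0.000169). Mmp23 stood at 0.784 to 2.95 CPM in controls and 3.70 to 5.97 CPM in mutants and was called higher (log2 fold change 1.27 ± 0.32 SE, edgeR adjusted p = 0.00867).

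The stromelysins and collagenases gave little. Mmp11, stromelysin 3, stood at 7.92, 4.07, 2.91 and 4.42 CPM in controls and 6.11, 9.23, 8.99 and 7.35 CPM in mutants, so that control 1 was above mutants 1 and 4. Its call was marginal (log2 fold change 0.72 ± 0.27 SE, edgeR adjusted p = 0.0476) and was lost when control 2, 3 or 4 or mutant 2, 3 or 4 was left out. Mmp3, stromelysin 1, stood at 0.0894 to 1.00 CPM in controls and 0.286 to 0.581 CPM in mutants and was not called (log2 fold change -0.55 ± 0.54 SE, edgeR adjusted p = 0.435). Mmp28, epilysin, was not called either, at 8.71 ± 1.18 CPM in controls and 10.7 ± 1.93 CPM in mutants (SD, n = 4; edgeR adjusted p = 0.119). None of the 3 collagenase genes was tested: Mmp13 had 42 reads and Mmp8, the neutrophil collagenase, 43 reads over all 8 mice, and Mmp1b was at 0. Mmp13, Mmp12, Mmp1b, Mmp3, Mmp10, Mmp8, Mmp27, Mmp20 and Mmp7 lie side by side on chromosome 9, and of these 9 genes Mmp12 and Mmp3 were tested.

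Of the 13 tested ADAM genes 4 were called, all higher. Adam8, which encodes a sheddase of leukocytes, stood at 1.97, 1.04, 0.941 and 1.59 CPM in controls and 4.05, 2.88, 2.55 and 3.43 CPM in mutants (log2 fold change 1.23 ± 0.26 SE, edgeR adjusted p = 0.00333). It moved in the same direction as the macrophage markers, whose part was not tested. Adam12, known from myoblasts and from fibro-adipogenic cells of damaged muscle, stood at 1.37, 4.01, 2.78 and 2.59 CPM in controls and 6.93, 5.28, 4.72 and 5.05 CPM in mutants (log2 fold change 1.03 ± 0.27 SE, edgeR adjusted p = 0.00938). Adam33, a mesenchymal member, stood at 2.28 to 5.57 CPM in controls and 6.06 to 9.40 CPM in mutants (log2 fold change 1.11 ± 0.27 SE, edgeR adjusted p = 0.0061). In each of the 3 the genotypes were apart, by a small gap for Adam12 and Adam33.

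Adam23 had the smallest adjusted p of the ADAM genes. It encodes a non-catalytic ADAM that binds LGI proteins in nerve. It stood at 5.09, 3.39, 4.57 and 3.89 CPM in controls and at 13.0, 12.9, 11.97 and 12.4 CPM in mutants. The mutants differed little among themselves, and the level was 2.96-fold higher (log2 fold change 1.57 ± 0.13 SE, edgeR adjusted p = 5.53e-06). Adam11 and Adam22, the other non-catalytic members of nerve, were not called, with log2 fold changes of 0.35 ± 0.30 and -0.21 ± 0.15 (SE). The summed Schwann cell markers overlapped between the genotypes, and the part of nerve in the Adam23 level was not tested.

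None of the 4 ADAMs with the highest levels per length, Adam9, Adam15, Adam10 and Adam17, was called. Adam9 was at 68.9 ± 3.07 CPM in controls and 83.4 ± 3.37 CPM in mutants (SD, n = 4). Its adjusted p passed (0.0032, edgeR) and the genotypes did not overlap, but its log2 fold change of 0.27 ± 0.06 (SE) lay under the threshold. Adam15 was at 93.9 ± 11.9 CPM in controls and 77.1 ± 2.95 CPM in mutants (log2 fold change -0.28 ± 0.09 SE, edgeR adjusted p = 0.0218). Adam10, the sheddase of Notch, was at 39.6 ± 1.55 and 44.3 ± 2.51 CPM (edgeR adjusted p = 0.059). Adam17, which sheds tumour necrosis factor, was at 49.7 ± 5.02 and 48.7 ± 5.23 CPM (edgeR adjusted p = 0.827). Adam19 was at 16.4 ± 5.18 CPM in controls and 22.3 ± 2.40 CPM in mutants. Its log2 fold change of 0.44 ± 0.18 (SE; edgeR adjusted p = 0.0707) became 0.66 and was called without control 4, the highest control at 23.7 CPM.

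**Figure D4:**
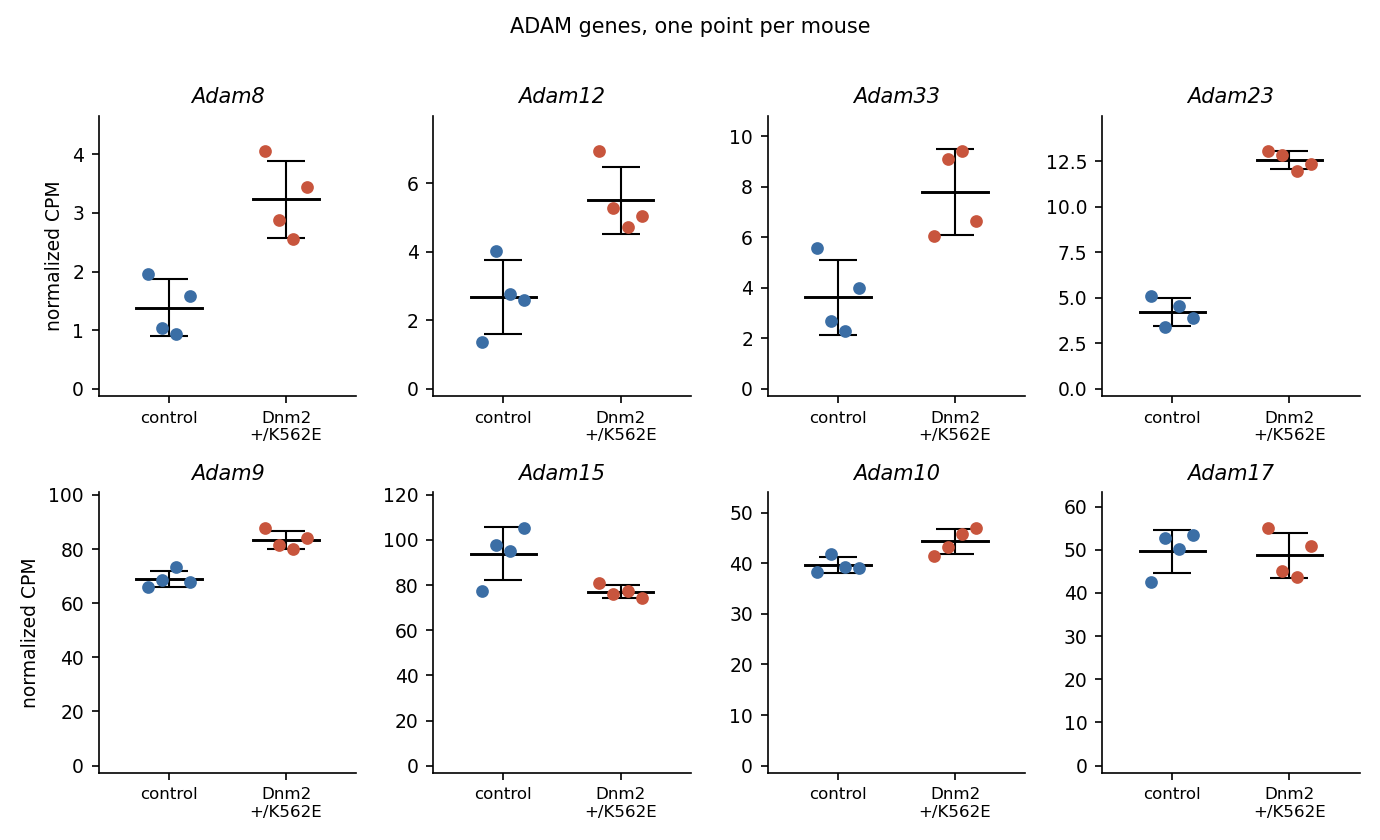
Normalised CPM (vertical axis, 1 scale per panel) of 8 Adam genes in each control and Dnm2 +/K562E mouse (points), with the mean (bar) and SD. Adam23 sits at 11.97 to 13.0 in the mutants against 3.39 to 5.09 in controls, while Adam10 and Adam17 overlap between the genotypes.

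The largest group of ADAM genes is known mainly from testis and epididymis. Of these 21 genes 19 had too few reads to be tested, and the other two, Adam1a and Adam5, were not called. Adam1a shares 78.4% of its 31-base stretches with Gm42878, an overlapping gene on the same strand, so its own reads are uncertain. Adam5 was at 0.205 ± 0.194 CPM in controls and 0.469 ± 0.144 CPM in mutants (SD, n = 4; edgeR adjusted p = 0.176).

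All 3 procollagen N-proteinases, the ADAMTS enzymes that remove the amino-terminal propeptide of fibrillar procollagens, were called higher. Adamts3, which also processes the lymphatic growth factor VEGF-C, stood at 2.12, 0.980, 1.97 and 1.62 CPM in controls and at 9.48, 8.99, 8.04 and 8.32 CPM in mutants. The lowest mutant was far above the highest control, and the level was 5.18-fold higher (log2 fold change 2.37 ± 0.20 SE, edgeR adjusted p = 7.4e-06). Adamts2, the main processing enzyme of skin collagen, stood at 30.4, 35.9, 32.8 and 47.2 CPM in controls and 65.2, 61.5, 61.4 and 52.5 CPM in mutants (log2 fold change 0.72 ± 0.13 SE, edgeR adjusted p = 0.000985). Adamts14 stood at 3.78, 2.88, 4.12 and 4.74 CPM in controls and 8.31, 7.04, 5.96 and 7.05 CPM in mutants (log2 fold change 0.87 ± 0.17 SE, edgeR adjusted p = 0.00168). The fibroblast markers Col1a1 and Col1a2, which encode substrates of these enzymes, stood at 565.8 and 747.4 CPM in controls and 1131 and 1497 CPM in mutants in the mean. The part of the fibroblasts was not tested.

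The 7 proteoglycan-cleaving ADAMTS genes split. Adamts8 was higher, Adamts15 was lower and the other 5 were not called, with a median log2 fold change of -0.49 over the 7. Adamts8 stood at 21.7, 20.7, 22.2 and 18.1 CPM in controls and at 57.2, 61.0, 53.4 and 49.2 CPM in mutants. All mutants were above all controls (log2 fold change 1.42 ± 0.09 SE, edgeR adjusted p = 1.29e-06). Adamts15, a versican-cleaving enzyme known from fusing myoblasts, stood at 6.02, 9.41, 7.66 and 9.04 CPM in controls and at 5.68, 3.60, 3.72 and 4.89 CPM in mutants (log2 fold change -0.85 ± 0.19 SE, edgeR adjusted p = 0.00384). Control 1 and mutant 1 were close, and all other mutants were lower. These genes are neighbours on chromosome 9: Adamts15 runs from 30922452 down to 30899155 on the - strand, Adamts8 from 30942562 up to 30963838 on the + strand, and 20109 bases lie between them.

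Adamts1, whose level per length was the highest of the ADAMTS genes in controls, stood at 58.2, 95.7, 82.0 and 91.5 CPM in controls and at 63.4, 44.4, 67.7 and 56.9 CPM in mutants. Its adjusted p passed (0.0279, edgeR) but its log2 fold change of -0.49 ± 0.16 (SE) did not reach the threshold. Adamts9 was similar, at 39.7 ± 4.73 CPM in controls and 27.8 ± 4.35 CPM in mutants (SD, n = 4; log2 fold change -0.52 ± 0.12 SE, edgeR adjusted p = 0.00481). Adamts4, which encodes aggrecanase 1, stood at 0.447, 3.62, 5.02 and 4.12 CPM in controls and 1.77, 0.999, 0.954 and 1.35 CPM in mutants. Control 1 was below every mutant while the other controls were above them, and the log2 fold change of -1.39 ± 0.53 (SE) was not called (edgeR adjusted p = 0.052). Without control 1 it was -1.76 and was called (edgeR adjusted p = 0.000181), as was Adamts1 at -0.63, which brought the number of lower ADAMTS genes from 1 to 3. Leaving out any other mouse gave Adamts4 an adjusted p of 0.0635 to 0.141 (edgeR). That of Adamts1 rose to between 0.0549 and 0.0816 (edgeR) without control 2, 3 or 4 or mutant 2 or 4. Adamts5, which encodes aggrecanase 2, overlapped between the genotypes (30.98 ± 9.79 and 26.8 ± 5.34 CPM, SD, n = 4; edgeR adjusted p = 0.437). Adamts20 was not called (log2 fold change 0.30 ± 0.13 SE, edgeR adjusted p = 0.0921).

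**Figure D5:**
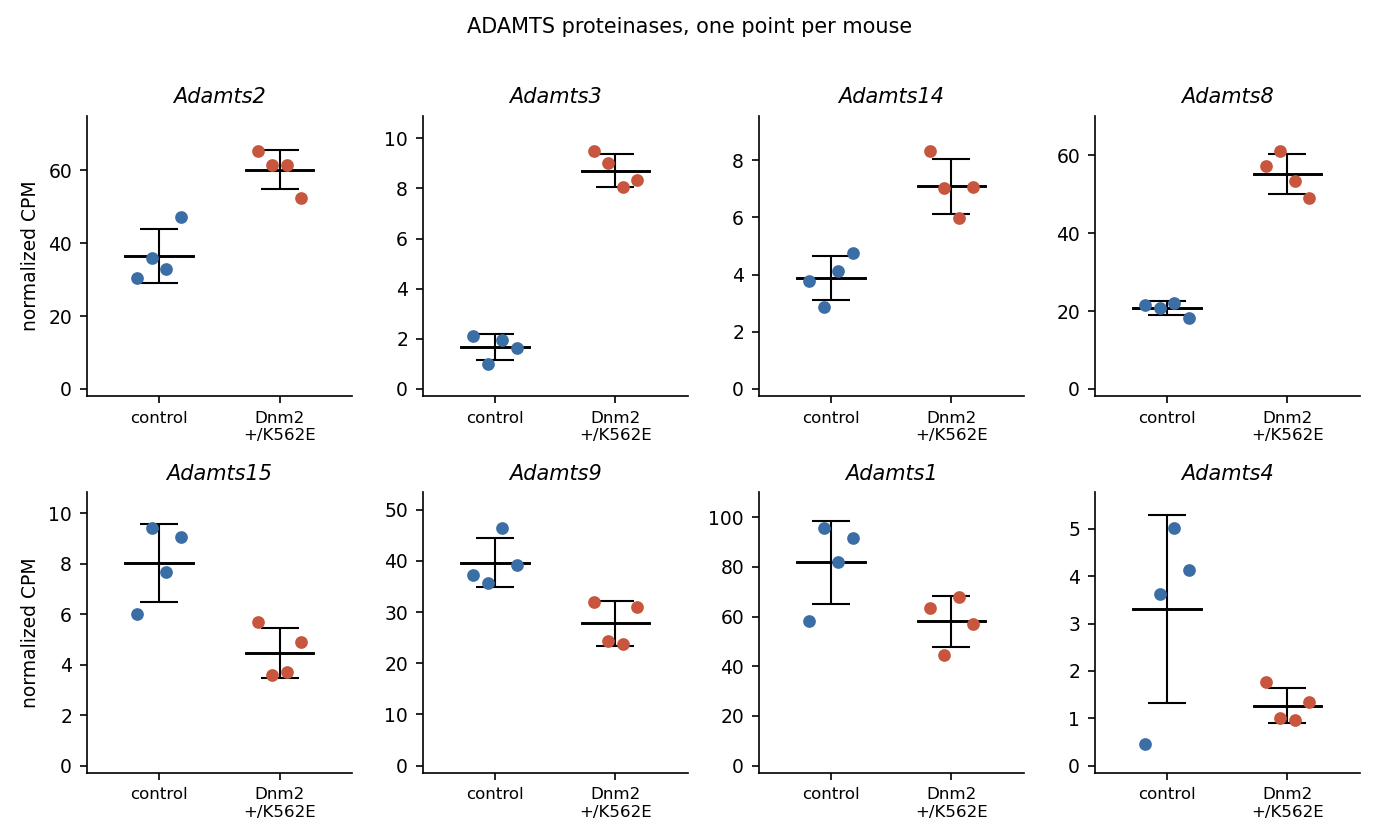
Normalised CPM (vertical axis, 1 scale per panel) of 8 Adamts genes in each control and Dnm2 +/K562E mouse (points), with the mean (bar) and SD. Adamts2, Adamts3, Adamts14 and Adamts8 sit higher in every mutant mouse and Adamts15 lower, and control 1 is the lowest of all 8 mice for Adamts4 at 0.447.

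Of the remaining ADAMTS genes, Adamts7, which cuts cartilage oligomeric matrix protein (COMP), was called at the margin. It stood at 4.74, 2.82, 2.33 and 2.80 CPM in controls and 4.83, 5.02, 5.13 and 4.30 CPM in mutants, so control 1 lay among the mutants. Its log2 fold change was 0.61 ± 0.21 (SE; edgeR adjusted p = 0.0356), and the call was lost when control 2, 3 or 4 or mutant 1, 2 or 3 was left out. Adamts12, the other gene of this role, was not called (13.1 ± 2.43 and 14.5 ± 1.89 CPM, SD, n = 4). Adamts19 stood at 0.298, 0.178, 0.381 and 0.265 CPM in controls and 0.570, 1.58, 0.930 and 0.649 CPM in mutants. It was called higher (log2 fold change 1.71 ± 0.41 SE, edgeR adjusted p = 0.00643), but passed the filter on low counts only through the mutants. Adamts6, Adamts10, Adamts16 and Adamts17 were not called, with log2 fold changes of 0.46, 0.29, 0.61 and 0.35. Adamts13, the liver enzyme that cuts von Willebrand factor, was at 0 in every mouse.

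Levels of different genes can be compared per length of exon. The length takes in every annotated exon of a gene, 888 bases for Timp1 and 8144 for Timp3. The sums, shares and ratio below depend on this choice of length. On that scale (CPM per kilobase) Timp2 led in controls at 46.9, followed by Timp3 at 38.4 and Mmp2 at 37.1, and Mmp2 led in mutants at 100.9, followed by Timp2 at 95.4. Summed over all members of a family, the Mmp level was 59.4 ± 11.2 CPM per kilobase in controls and 129.6 ± 10.4 in mutants (SD, n = 4), with ranges of 53.1 to 76.2 and 121.2 to 144.7. The Timp sum was 114.4 ± 9.90 in controls and 168.6 ± 9.49 in mutants, the Adamts sum 37.5 ± 4.28 and 44.4 ± 2.45, and the Adam sum 52.0 ± 3.19 and 56.4 ± 1.74. The ratio of the Timp to the Mmp sum was 1.67 to 2.13 in controls and 1.23 to 1.39 in mutants. These sums count RNA, and neither protein nor enzyme activity was measured.

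The share of Mmp2 in the Mmp sum was larger in every mutant mouse than in any control. It was 62.3% ± 3.71 in controls and 77.9% ± 0.174 in mutants (SD, n = 4), and Mmp15 made up 15.3% ± 5.35 and 3.49% ± 0.852. Mmp14 made up 9.06% ± 0.416 and 8.67% ± 0.385. Timp4 made up 16.2% ± 3.29 of the Timp sum in controls and 3.41% ± 0.402 in mutants, Timp1 9.22% ± 1.24 and 19.3% ± 2.79, Timp2 40.7% ± 5.28 and 56.5% ± 2.97, and Timp3 33.8% ± 6.16 and 20.8% ± 2.28. Among the ADAMTS genes the share of Adamts1 was 40.9% ± 5.10 in controls and 24.7% ± 3.90 in mutants, and that of Adamts8 was 12.2% ± 2.27 and 27.0% ± 2.14. Among the ADAM genes Adam9 and Adam15 made up 32.3% ± 1.95 and 29.3% ± 2.00 in controls and 35.9% ± 0.479 and 22.2% ± 0.627 in mutants.

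Of the 31 members that were not tested, 17 were at 0 in every mouse and 14 had between 1 and 80 reads over all 8 mice. The 17 were Adam6a, Adam6b, Adam7, Adam18, Adam20, Adam24, Adam25, Adam26b, Adam28, Adam29, Adam30, Adam34, Adam39, Mmp1b, Mmp7, Mmp20 and Adamts13. The 14 were Adam26a with 1 read, Adam2 and Mmp21 with 2 reads each, Adam1b with 3, Adam21 with 5, Mmp10 with 8, Adam3 with 11, Mmp27 with 36, Adam32 with 41, Mmp13 with 42, Mmp8 with 43, Adam4 with 48, Adamts18 with 67 and Mmp25 with 80 reads. Adam3 had 0 reads in every control and 1, 3, 1 and 6 reads in mutants 1 to 4. With no filter on low counts it was called higher (edgeR adjusted p = 0.0497), and DESeq2, also run with no filter, did not call it (adjusted p = 0.0928). The other 13 were not called by edgeR with no filter.

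The activators, inhibitors and partners of these proteases were taken as 35 further genes in 5 groups, chosen with earlier results of these data known. Of the 31 tested, 14 were called higher and 2 lower, with a median log2 fold change of 0.56. Over all 14001 genes tested, 12.9% were called higher and 7.85% lower, with a median of 0.0074. The counts by group below stand against the same shares. Of the convertases and the plasminogen system, which remove pro-domains, Pcsk5 stood at 11.5, 10.4, 8.62 and 12.5 CPM in controls and 43.9, 34.7, 30.6 and 28.5 CPM in mutants (log2 fold change 1.69 ± 0.15 SE, edgeR adjusted p = 1.01e-05). Furin, the general convertase, was not called (53.9 ± 5.56 and 53.4 ± 2.74 CPM, SD, n = 4; edgeR adjusted p = 0.9). Plaur, which encodes the urokinase receptor, was called higher at the margin (log2 fold change 0.69 ± 0.24 SE, edgeR adjusted p = 0.0347), and the call was lost when control 2, 3 or 4 or mutant 1, 3 or 4 was left out, and with either numbering of the mice as a block (adjusted p = 0.0563 and 0.0602, edgeR).

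Inhibitors outside the TIMP family were higher where they were called. Reck, a membrane-anchored inhibitor of MMP2, MMP9 and MMP14, was at 8.89 ± 1.63 CPM in controls and 15.1 ± 2.10 CPM in mutants (SD, n = 4; log2 fold change 0.77 ± 0.15 SE, edgeR adjusted p = 0.00168). Tfpi2 and Spock3 were called higher as well, with log2 fold changes of 1.01 ± 0.26 and 0.97 ± 0.22 (SE). Spock2, a relative of Spock3 that is not counted here as an inhibitor, was also called higher (0.75 ± 0.21 SE). Bsg, which encodes the MMP inducer basigin, was at 349.4 ± 12.5 CPM in controls and 277.3 ± 4.57 CPM in mutants, and its log2 fold change of -0.33 ± 0.05 (SE; edgeR adjusted p = 0.000463) lay under the threshold.

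Some partners of ADAM10 and ADAM17 were called as well. Of the 5 tested tetraspanins of the TspanC8 group, which carry ADAM10 to the cell surface, 3 were called higher and 2 were not called. Tspan17 stood at 11.9, 12.2, 14.4 and 12.8 CPM in controls and 24.3, 26.3, 26.6 and 25.8 CPM in mutants (log2 fold change 1.00 ± 0.08 SE, edgeR adjusted p = 4.41e-06). Tspan5 and Tspan33 had log2 fold changes of 0.75 ± 0.13 and 0.87 ± 0.14 (SE). Tspan14 ran the other way, at 24.6 ± 1.34 CPM in controls and 19.1 ± 2.14 CPM in mutants (SD, n = 4), without overlap. Its log2 fold change of -0.36 ± 0.09 (SE; edgeR adjusted p = 0.00699) lay under the threshold. So did that of Tspan15, at 0.33 ± 0.10 (SE; edgeR adjusted p = 0.0253). Rhbdf2, an iRhom needed for the maturation of ADAM17 in leukocytes, was called lower, at 14.9, 20.5, 20.6 and 21.6 CPM in controls and 9.64, 12.2, 12.6 and 12.1 CPM in mutants (log2 fold change -0.74 ± 0.13 SE, edgeR adjusted p = 0.00091). Rhbdf1, the other iRhom, was at 31.4 ± 3.89 and 46.2 ± 2.13 CPM (SD, n = 4), and its log2 fold change of 0.56 ± 0.09 (SE; edgeR adjusted p = 0.000461) was just under the threshold.

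Of the 5 enzymes and enhancers that act at the other end of procollagen, 3 were higher. Bmp1, which removes the carboxy-terminal propeptide, stood at 37.6, 37.0, 36.0 and 49.3 CPM in controls and 75.9, 74.0, 69.9 and 66.6 CPM in mutants (log2 fold change 0.84 ± 0.10 SE, edgeR adjusted p = 7.55e-05). Its enhancers Pcolce and Pcolce2 were higher, with log2 fold changes of 1.03 ± 0.13 and 0.99 ± 0.20 (SE). Tll1 and Tll2, which encode related enzymes, were not called. Of the 7 ADAMTS-like genes, which encode proteins without a protease domain, Adamtsl3 was higher (log2 fold change 0.61 ± 0.12 SE, edgeR adjusted p = 0.00176), though it fell under the fold threshold without control 2 (0.51) or mutant 1 (0.54). Adamtsl4, which binds fibrillin, was lower at 61.1 ± 9.65 CPM in controls and 34.5 ± 3.55 CPM in mutants (SD, n = 4; log2 fold change -0.82 ± 0.11 SE, edgeR adjusted p = 0.000188), and the other 5 were not called.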

How the data were processed

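RNA of soleus muscle from 4 control and 4 Dnm2 +/K562E mice was sequenced. The authors trimmed the reads with Trimmomatic 0.33, aligned them with STAR 2.5.1b to GRCm38.p5 with Ensembl annotation and tallied reads on genes with featureCounts, and they deposited raw counts per gene and mouse. Multi-mapping reads counted at their primary alignment, and reads overlapping several genes counted for each. The strand setting is not given in the sources used here. The low counts of some genes that overlap another on the opposite strand go with counting by strand, which was not tested. The methods and the labels name different library kits. For their own comparison the authors used edgeR 3.14.0.

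GENCODE M21 matched 22647 of 22880 gene IDs and gave symbols, positions and exon lengths; the unmatched ones held 0.304% of the counts. With edgeR 4.0.16 in R 4.3.3, filterByExpr (minimum count 10, minimum total 15) left 14001 genes. TMM factors were 0.915 to 0.959 in controls and 1.04 to 1.10 in mutants, and a quasi-likelihood F-test compared the genotypes, with Benjamini-Hochberg adjustment over all tested genes. Calls used the thresholds of the study's methods, 0.05 for the adjusted p and 0.58 for the size of the log2 fold change. Standard errors follow from the F statistic. The steps were tested on simulated data. Levels are normalised CPM, and levels per length divide them by kilobases of exon. Intervals of counting error are not given, since the spread between mice was larger: the smallest chi-square per degree of freedom between 2 mice of a genotype was 12.6.

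The genes named were the 4 Timp genes, every called member, the 3 uncalled members of each other family with the highest level per length, a short list of well-known members, Dnm2 and every called regulator, of which 1 is counted but not reported here. Adamts4, Adamts9, Adamts20, Rhbdf1, Bsg, Furin, Tspan14, Tspan15 and the uncalled or untested genes given by counts were added after their values were seen. Members and lists were chosen with earlier results of these data known. Mmp1a was left out as a polymorphic pseudogene in the annotation. The numbers 1 to 4 in the labels name different mice, and deviations from the group means of mice with the same number correlated at -0.213 to 0.0095, so the comparison was made without a replicate block. The alternatives tried were DESeq2 1.42.0, edgeR's exact test, other scalings and filters, a replicate block, and leaving out each mouse.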

Additional observations from a re-analysis of the deposited data

Results flagged for a closer look

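Of 142 groups of 4 mice examined, 11 held a mouse that lay apart from the other 3 by Dixon's criterion, and chance gives about 1 in 20. Control 1 was low for Timp4 (81.7 CPM against 114.3 to 119.6 CPM in the other controls), for Mmp15 (22.9 CPM against 55.6 to 62.0 CPM) and for Rhbdf2 (14.9 CPM against 20.5 to 21.6 CPM). Control 3 was the only control with reads of Mmp24 (0.157 CPM) and was low for Dnm2 (59.2 CPM against 68.5 to 68.8 CPM) and for Adam11 (0.873 CPM against 2.09 to 2.20 CPM). Control 4 was high for Bmp1 (49.3 CPM against 36.0 to 37.6 CPM) and for the summed level of the Mmp family (76.2 CPM per kilobase against 53.1 to 54.5). Among the mutants, mouse 4 was low for Reck (11.999 CPM against 16.0 to 16.3 CPM), and mouse 1 was low for Rhbdf2 (9.64 CPM against 12.1 to 12.6 CPM) and high for Adamtsl3 (29.5 CPM against 24.1 to 25.0 CPM).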

How the results depend on the processing

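The 24 called members were all called by DESeq2, the exact test of edgeR, median-ratio factors, library size alone, no filter on low counts and the block on the numbers of the descriptions. With at least 10 counts in every mouse Adamts19, Mmp12 and Mmp24 were not tested. Leaving out a mouse gave 18 to 20 higher and 4 to 6 lower members, and it cost the calls of Mmp11 and Adamts7 only. The lower ADAMTS genes, 1 as reported, were 1 to 3 when a mouse was left out, 2 by the exact test, 2 with no filter (which adds Adamts4, and Adam3 among the higher genes) and 3 with no fold threshold. With no fold threshold 7 members and 1 ADAM gene were lower. Scaled by library size alone, the median of all genes shifted to 0.22, 2865 genes in all were higher and 564 lower (1806 and 1099 with TMM), 83.6% of all calls were higher (62.2% with TMM), and 5 of the 23 uncalled members, moved up with all genes by that shift, changed sign: Timp3 (0.0763), Mmp17 (0.13), Adamts5 (0.0015), Adam17 (0.18) and Adam22 (0.0011), as did Furin (0.20). Under this scaling Adam19 and Adamts6 were called higher too, and Rhbdf2 (-0.53) was no longer called. Over the left-out mice Adam17 ranged from -0.11 to 0.019, Furin from -0.092 to 0.023 and Adamts17 from -0.047 to 0.55. As a replicate block, the numbers of the titles gave 19 higher and 4 lower members (Mmp11 lost, adjusted p = 0.079, edgeR) and those of the descriptions 20 and 4; Plaur was lost under both and no other named regulator. The numbers pair different mice, with correlations of -0.213 to 0.0095 in the titles and -0.167 to 0.178 in the descriptions. For the Dixon comparisons no alternative was run. Counts of 4 mice limit what can be called, and genes that did not reach about 10 reads in at least 4 mice of either genotype were not tested. The causes of these shifts were not tested.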
